A study of Mus musculus with 8 samples.

Results

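The enzymes that build cholesterol and fatty acids, with the regulators of the sterol-sensing transcription factors called SREBPs, were examined in CD44hi and CD44lo subpopulations of mouse T cell lymphoma lines. The members were given as a list of 33 gene symbols. A member was counted as found where the platform annotation gives its symbol alone to a probe set (a group of array probes for 1 transcript), which held for 31 of 33, out of 12393 genes measured in this way. Acat2 and Insig1 were not found under this rule and are not analysed here. The found members comprise 6 enzymes of the mevalonate steps, 11 of the steps from squalene to cholesterol, 5 SREBP regulators or sterol carriers, and 9 genes of fatty acid synthesis.

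RNA was hybridised to 8 Affymetrix Mouse 430A 2.0 arrays, 4 of CD44hi and 4 of CD44lo cells. Per the labels, both groups were purified from established lines of T cell lymphoma that lack Snf5, the core SWI/SNF subunit encoded by Smarcb1. The deletion is therefore shared by CD44hi and CD44lo, and no Snf5-intact group is used here. Which allele was deleted, how many lines were used and how they were grown is not given in those labels. Each group has replicates numbered 1 to 4, and the labels do not say what a number stands for. The p-values thus rest on variation among these arrays, and part of it may be technical. Arrays are called by their replicate number, and numbers 1 and 3, or 2 and 4, form a pair (a replicate set in the plots). All levels are log2 intensity, and all differences are on the log2 scale.

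Cd44, the sorting marker, lay at 11.2 to 11.73 on the CD44hi arrays and at 4.92 to 5.94 on the CD44lo arrays, which checks the labels. Smarcb1 lay between 6.62 and 7.12 on every array, and whether its probe set covers the deleted part is not known. Of the T cell markers, Cd3d, Cd3e, Cd3g, Cd8a and Cd8b1 lay between 12.92 and 14.21 on every array, and Cd4 lay between 5.05 and 5.44. The adipocyte and fibroblast markers measured lay between 3.65 and 5.78, and the hepatocyte markers between 5.39 and 6.89, where the 25th percentile of all values was 5.43. Of the B cell markers, Ms4a1 lay between 4.25 and 6.01 in CD44hi and between 3.44 and 3.94 in CD44lo (limma adjusted p = 0.0961), and Cd79a and Cd79b between 4.53 and 5.6. Arrays 1 and 3 resembled each other, apart from arrays 2 and 4, in both groups. CD44hi was therefore compared with CD44lo over all arrays and also separately in arrays 1 and 3 and in arrays 2 and 4.

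Cholesterol is made from acetyl-CoA by the mevalonate pathway, whose product farnesyl diphosphate is joined to squalene, closed to a ring and trimmed to cholesterol. When membranes lack sterol, the escort protein SCAP carries SREBP precursors from the endoplasmic reticulum to the Golgi, where they are cut, and the freed fragment raises transcription of these enzymes; INSIG proteins hold the complex back when sterol is plentiful. SREBP2 acts mainly on sterol genes and SREBP1 on fatty acid genes, and T cells raise both programmes when they divide.

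Over all arrays, none of the 31 members differed between CD44hi and CD44lo (limma, Benjamini-Hochberg adjusted p under 0.05 over all genes), against 3.81% of all genes. At an unadjusted p under 0.05 the count was 1 member, against 12.6% of all genes. The median difference of the members, CD44hi minus CD44lo, was -0.06, against 0 over all genes, and 10 members lay above 0 and 21 below. The differences ran from -0.47 for Tm7sf2 to 0.62 for Fads1, with standard errors from 0.07 for Scd2 to 0.56 for Hsd17b7. No member had 4 CD44hi values on one side of its 4 CD44lo values, which held for 10.3% of all genes. In 23 of 31 members, as given below, all arrays 1 and 3 lay above all arrays 2 and 4. Each group holds arrays of both pairs, so in these members the groups had to overlap. The count of 0 therefore does not show that the members differ less by CD44 than other genes. Fads1 had a mean level of 9.38 (SD 0.65, n = 4) on the CD44hi arrays and 8.76 (SD 0.64, n = 4) on the CD44lo arrays, and an exact permutation test, two-sided, gave p = 0.2. Tm7sf2 had means of 9.45 (SD 0.16, n = 4) and 9.92 (SD 0.43, n = 4), with p = 0.114 in the same exact test. The smallest p that the 70 assignments allow is 0.0286. Both exact tests shuffled the 8 arrays without regard to replicate number, so differences between the pairs entered their spread.

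Arrays of the same number in both groups moved together. A fit blocked on the replicate number called 1 member, Fads1, as higher in CD44hi (difference 0.62, SE 0.09, limma adjusted p = 0.0120), against 6.19% of all genes. With arrays 1 and 3 against 2 and 4 as a block of 2 levels, Fads1 was higher (limma adjusted p = 0.0022) and Tm7sf2 lower (difference -0.47, SE 0.10, limma adjusted p = 0.0244), against 8.6% of all genes. With the replicate number as a block the adjusted p of Tm7sf2 was 0.0730. With the arrays of each pair averaged first and the pair as a block, neither passed (limma adjusted p = 0.0511 for Fads1 and 0.252 for Tm7sf2).

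The spread behind those standard errors followed the replicate number, most of all in the sterol enzymes. In 23 of 31 members every one of the 4 arrays numbered 1 and 3 lay above every one of the 4 arrays numbered 2 and 4. Over all genes this held for 12.3%, and the opposite order held for 13.1% and for 0 members. The median difference of the members, arrays 1 and 3 minus arrays 2 and 4, was 0.55, against -0.01 over all genes. It was 0.63 in CD44hi and 0.48 in CD44lo. This grouping of numbers was taken up because arrays part along it across all genes, so these values are a description and no test is given. What the numbers stand for is not known.

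**Figure D1:**
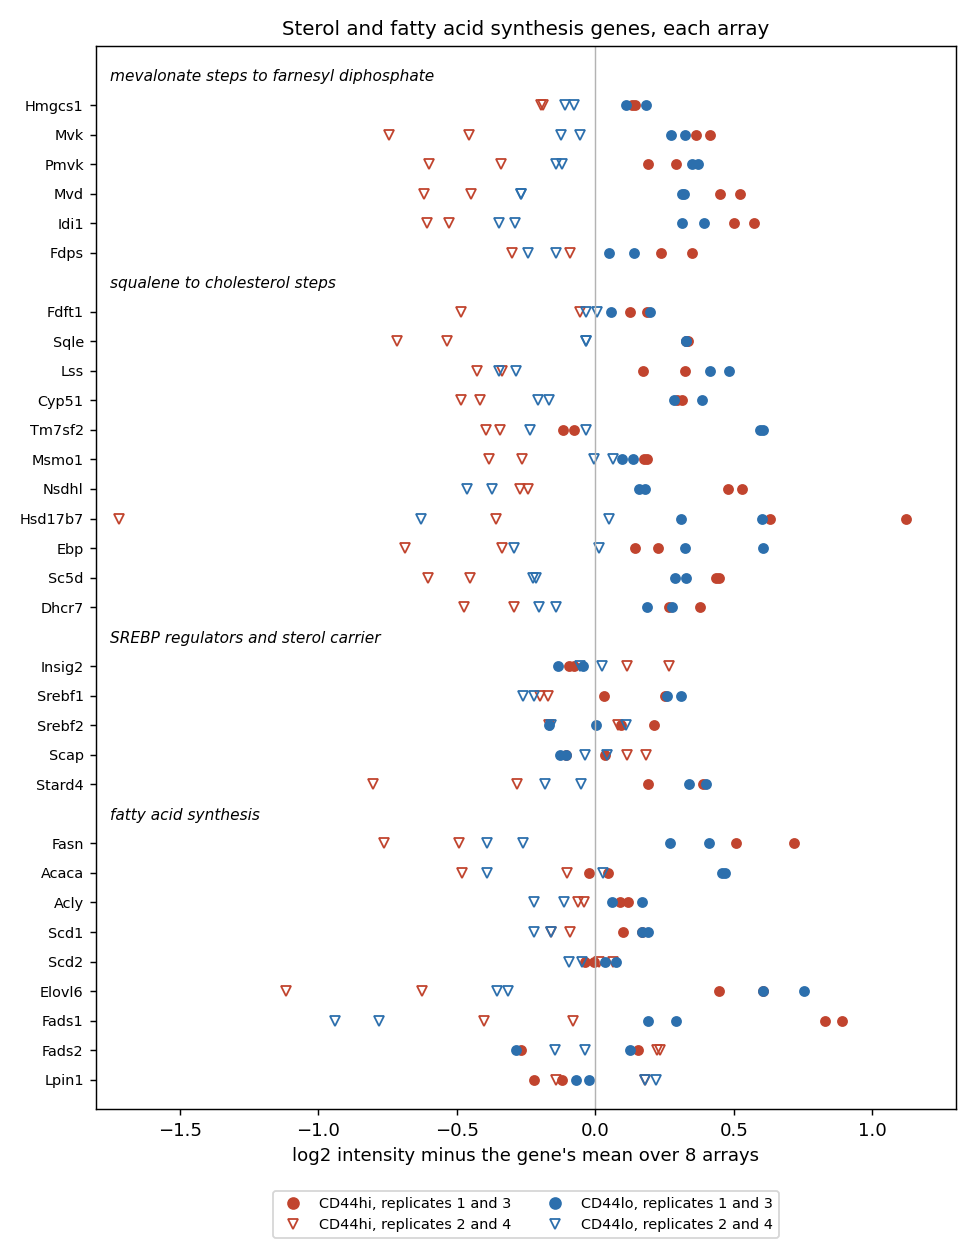
Log2 intensity of each found member on each of the 8 arrays, less the gene's mean over all arrays (x axis, log2 units), by role. Filled circles are arrays 1 and 3, open triangles arrays 2 and 4, red CD44hi and blue CD44lo; in 23 of 31 members all circles lie to the right of all triangles.

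Every one of the 6 mevalonate enzymes was higher on arrays 1 and 3 in both groups. Hmgcs1, which makes the precursor of mevalonate, was at 14.04, 13.71, 14.03 and 13.70 on CD44hi arrays 1 to 4 and at 14.08, 13.79, 14.01 and 13.82 on the CD44lo arrays. Its arrays 2 and 4 were the lower pair in each group, with a mean difference of 0.28. Hmgcs1 has 4 probe sets, and this difference grew as their level fell, from 0.28 for the brightest, through 0.44 and 0.49, to 1.06 for the dimmest at a mean level of 10.99. Idi1, which isomerises isopentenyl diphosphate, was at 13.41, 12.38, 13.48 and 12.30 in CD44hi and at 13.22, 12.56, 13.30 and 12.62 in CD44lo. Its arrays 1 and 3 were higher by 1.10 in CD44hi and by 0.67 in CD44lo, so the pairs lay farther apart in CD44hi. The remaining mean differences were 0.80 for the decarboxylase Mvd, 0.69 for mevalonate kinase Mvk, 0.60 for the second kinase Pmvk and 0.39 for Fdps, which makes farnesyl diphosphate.

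Of the 11 enzymes from squalene to cholesterol, 10 had all arrays 1 and 3 above all arrays 2 and 4. The largest mean difference was that of Hsd17b7, a sterol ketone reductase, at 10.01, 8.53, 9.52 and 7.17 in CD44hi and at 9.49, 8.94, 9.20 and 8.26 in CD44lo. Its mean difference of 1.33 (2.51-fold) came with the largest spread of any member, since CD44hi array 4 lay far below CD44hi array 2. The other mean differences were 0.74 for the desaturase Sc5d, 0.70 for lanosterol synthase Lss, 0.68 for Nsdhl, 0.66 for squalene epoxidase Sqle, 0.65 for the isomerase Ebp, 0.64 for the lanosterol demethylase Cyp51 and 0.55 for Dhcr7, which performs a last reduction. A dimmer Lss probe set, at a mean level of 9.57, had 0.03. The mean differences were 0.29 for Msmo1, a methylsterol oxidase, and 0.28 for squalene synthase Fdft1. Tm7sf2, a sterol reductase, was the exception: its CD44hi arrays 1 and 3 lay below CD44lo array 4, with a mean difference of 0.50.

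**Figure D2:**
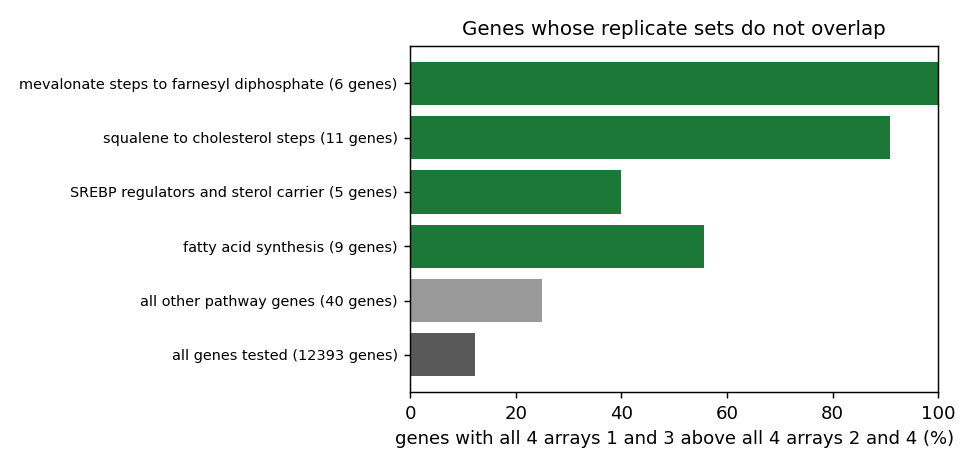
Share of genes (x axis, percent) whose 4 arrays numbered 1 and 3 all lie above their 4 arrays numbered 2 and 4, for each role group, for 40 other genes of lipid metabolism and for all 12393 genes. The bars stand at 100% and 90.9% for the sterol enzyme groups, 40% for SREBP regulators, 55.6% for fatty acid synthesis, 25% for the other lipid genes and 12.3% for all genes.

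The regulators were split. Srebf1, which encodes SREBP1, was at 11.81, 11.58, 12.03 and 11.61 in CD44hi and at 12.04, 11.52, 12.09 and 11.56 in CD44lo, so arrays 1 and 3 were the higher pair (mean difference 0.43). Srebf2, which encodes SREBP2, was at 12.80, 12.67, 12.68 and 12.42 in CD44hi and at 12.42, 12.70, 12.59 and 12.43 in CD44lo, and its pairs overlapped (mean difference 0.07). Insig2 and Scap, the retention and escort partners, had mean differences of -0.17 and -0.15, the reverse of the enzymes, with overlapping pairs. Stard4, a soluble carrier of cholesterol, followed the enzymes with a mean difference of 0.66. With the probe sets used, the regulator transcripts other than Srebf1 and Stard4 thus overlapped between the pairs. Dimmer Insig2 probe sets, at mean levels of 10.5 and 9.85, had larger mean differences of -0.31 and -0.39.

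The fatty acid genes followed the same order less evenly, with 5 of 9 free of overlap. Fatty acid synthase Fasn was at 11.74, 10.47, 11.95 and 10.74 in CD44hi and at 11.50, 10.97, 11.64 and 10.84 in CD44lo, and its mean difference was 0.95. The elongase Elovl6 and the desaturase Fads1 had mean differences of 1.21 and 1.10, or 2.31-fold and 2.14-fold. Scd1, a desaturase that makes oleate, was at 13.41, 13.08, 13.34 and 13.15 in CD44hi and at 13.41, 13.02, 13.43 and 13.08 in CD44lo, a mean difference of 0.31. Its paralog Scd2 was at 13.72, 13.79, 13.69 and 13.74 in CD44hi and at 13.76, 13.63, 13.80 and 13.68 in CD44lo, so the pairs overlapped. A dimmer probe set of Scd2, at a mean level of 10.40, had a mean difference of 0.71 where the one used had 0.03. Acly, which supplies acetyl-CoA, had a mean difference of 0.22 with the probe set used, and 0.45 and 0.87 with those at mean levels of 12.12 and 8.87. Acaca, the acetyl-CoA carboxylase, had a mean difference of 0.47 at a mean level of 6.60, with overlapping pairs. Lpin1 (-0.22), a phosphatidate phosphatase, and the desaturase Fads2 (-0.14) had the opposite sign with overlap.

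Of 19 members with several probe sets, 17 had all of them on one side in this difference. Other measures moved with the replicate number too. The log2 ratio of 3' to 5' control probe sets of Actb, a sign of RNA quality, was 0.380 to 0.532 on arrays 1 and 3 and 0.558 to 0.795 on arrays 2 and 4, while that of Gapdh overlapped between the pairs (0.683 to 0.838 and 0.650 to 0.877). Among 5 measured macrophage and dendritic cell markers, Cd68 had a mean of 8.16 on arrays 1 and 3 and 10.01 on arrays 2 and 4. The defining markers Lyz2, Csf1r, Adgre1 and Itgax stayed between 4.15 and 5.73 on every array. The summed linear intensity of all these markers, most of it from Cd68, was 387 to 428 on arrays 1 and 3 and 980 to 1384 on arrays 2 and 4. The part of RNA quality or of other cells in the differences of the members was not tested, and in bulk RNA fewer cells of a type cannot be told apart from less RNA per cell.

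Promoter windows of 300 bases around the annotated start were held by the RefSeq table (GRCm38.p6) for 24 of the 31 members, 32 windows in all. They were searched on both strands for TCACNCCAC, the core letters of a sterol regulatory element, for CCAAT, the box of the SREBP partner NF-Y, for GGGCGG, an Sp1 box, and for the palindrome CACGTG, counted once; matches of different motifs were allowed to overlap. TCACNCCAC was found in 1 of 32 member windows (3.12%), that of Hmgcs1, and in 1.24% of all 32851 windows. CCAAT was found in 20 member windows (62.5%) and 37.4% of all windows, GGGCGG in 23 (71.9%) and 35.7%, and CACGTG in 5 (15.6%) and 7.15%. No window was held for Sqle and Fads1, which passed a test within a replicate pair. The window of Hmgcs1 is shown for its TCACNCCAC match, and those of Mvk, Msmo1 and Tm7sf2 because these members also passed such a test. Each is written 5' to 3' on the strand of its gene, with capitals marking TCACNCCAC and CCAAT on either strand (ATTGG is CCAAT on the other strand).
Hmgcs1, chr13:119690101-119690400, plus strand: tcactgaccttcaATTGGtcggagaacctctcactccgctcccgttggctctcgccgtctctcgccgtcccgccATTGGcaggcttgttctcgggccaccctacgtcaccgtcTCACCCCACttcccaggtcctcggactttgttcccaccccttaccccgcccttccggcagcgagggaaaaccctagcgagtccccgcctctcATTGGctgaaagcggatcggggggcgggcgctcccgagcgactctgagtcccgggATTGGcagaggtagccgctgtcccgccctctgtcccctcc
Mvk, chr5:114444019-114444318, plus strand: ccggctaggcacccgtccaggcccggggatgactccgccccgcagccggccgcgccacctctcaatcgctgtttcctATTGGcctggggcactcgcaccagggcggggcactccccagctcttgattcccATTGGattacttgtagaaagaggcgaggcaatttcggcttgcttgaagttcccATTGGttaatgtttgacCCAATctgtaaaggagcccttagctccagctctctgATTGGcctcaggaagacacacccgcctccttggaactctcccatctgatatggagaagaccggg
Msmo1, chr8:64733529-64733828, minus strand: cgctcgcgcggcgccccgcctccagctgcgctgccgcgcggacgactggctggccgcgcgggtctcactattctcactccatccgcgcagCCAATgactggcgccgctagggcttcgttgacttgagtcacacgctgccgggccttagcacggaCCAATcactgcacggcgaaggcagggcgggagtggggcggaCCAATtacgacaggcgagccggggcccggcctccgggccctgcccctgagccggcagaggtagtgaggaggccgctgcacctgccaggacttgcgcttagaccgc
Tm7sf2, chr19:6067801-6068100, minus strand: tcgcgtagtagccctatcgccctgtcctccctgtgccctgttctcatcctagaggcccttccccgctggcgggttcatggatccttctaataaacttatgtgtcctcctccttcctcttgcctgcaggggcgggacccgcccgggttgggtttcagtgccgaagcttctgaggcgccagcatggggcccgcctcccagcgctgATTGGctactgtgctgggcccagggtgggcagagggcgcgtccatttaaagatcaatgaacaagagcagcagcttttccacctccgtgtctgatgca
The Hmgcs1 window held TCACCCCAC once, with 4 CCAAT boxes and 3 GGGCGG boxes. The Mvk window held 5 CCAAT boxes, the Msmo1 window 3 and the Tm7sf2 window 1. These are matches of letters in these windows, and no binding was measured.

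CD44hi and CD44lo were also compared within each replicate pair, and each count is given with its share of all genes. On arrays 2 and 4, 3 members were lower in CD44hi (limma on all 8 arrays with 4 cell means, adjusted p under 0.05), against 5.22% of all genes, and 1 was higher, against 4.94%. On arrays 1 and 3, 1 member was lower, against 2.94%, and 1 higher, against 2.86%. The median difference of the members was -0.21 on arrays 2 and 4 and 0 on arrays 1 and 3, with 22 and 14 of 31 below 0; over all genes it was 0 and 0.01 in the same order. Among the 17 sterol enzymes, 16 lay below 0 on arrays 2 and 4 (median -0.27) and 6 on arrays 1 and 3 (median 0.07). The RNA quality ratio of Gapdh was 0.760 to 0.877 in CD44hi and 0.650 to 0.730 in CD44lo, and that of Actb was higher in CD44hi at all 4 replicate numbers; the part of RNA quality in the CD44 differences, here and over all arrays, was not tested. At the adjusted threshold, counts of 1 to 3 among 31 members lie near the background shares. At an unadjusted p under 0.05 (limma), 12 of 31 members were lower in CD44hi on arrays 2 and 4, a larger share than the 12% of all genes. No test of this share was made.

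**Figure D3:**
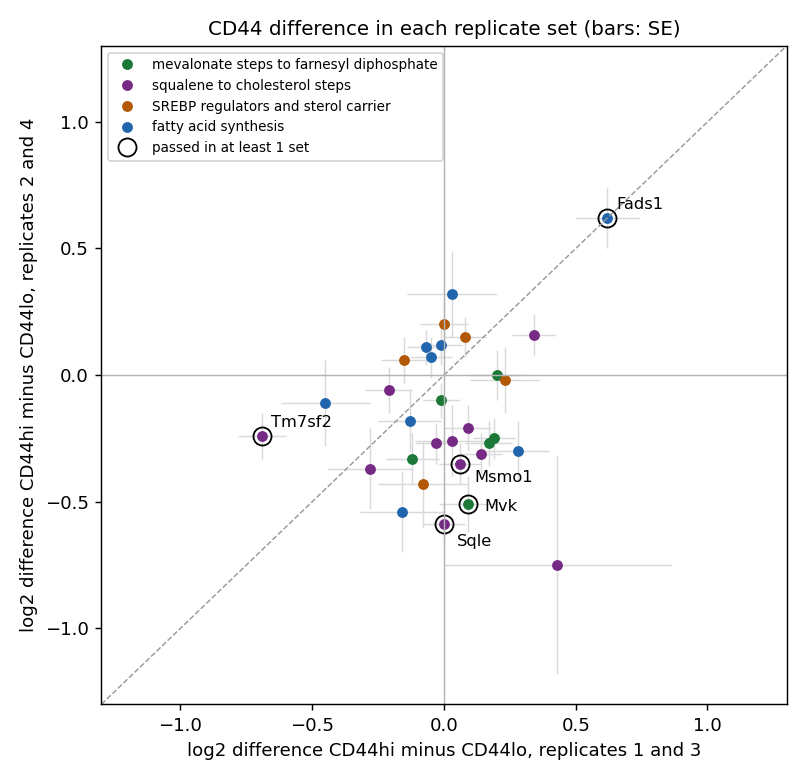
Log2 difference CD44hi minus CD44lo of each member on arrays 1 and 3 (x axis) and on arrays 2 and 4 (y axis), with the standard error from limma; the dashed line marks equal differences. The 5 circled members passed in at least 1 pair: Fads1 lies on the line at 0.62 in both, while Sqle, Mvk and Msmo1 lie near 0 on the x axis and below 0 on the y axis.

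Sqle, the epoxidase that commits squalene to sterols, was at 12.24, 11.20, 12.25 and 11.38 in CD44hi and at 12.24, 11.88, 12.24 and 11.88 in CD44lo. CD44hi arrays 2 and 4 were the lowest of all, while arrays 1 and 3 of the groups nearly coincided. On arrays 2 and 4 it fell in CD44hi (difference -0.59, SE 0.08, a 1.5-fold difference, limma adjusted p = 0.0056), and on arrays 1 and 3 its difference was 0.00 (SE 0.08, limma adjusted p = 0.988). The call of Sqle held without any 1 of the 8 arrays (limma adjusted p 0.0040 to 0.0462), with the replicate number as a block (0.0225), and not in the 4 arrays of the pair alone (0.0544).

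Mvk, the first of the mevalonate kinases, was at 9.78, 8.67, 9.83 and 8.96 in CD44hi and at 9.69, 9.29, 9.74 and 9.36 in CD44lo. It too was lowest on CD44hi arrays 2 and 4, where it fell (difference -0.51, SE 0.11, a 1.43-fold difference, limma adjusted p = 0.0230); on arrays 1 and 3 the difference was 0.09. The other Mvk probe set differed by -0.41 on arrays 2 and 4. Msmo1 was at 12.80, 12.23, 12.79 and 12.35 in CD44hi and at 12.71, 12.61, 12.75 and 12.68 in CD44lo, and on arrays 2 and 4 it fell (difference -0.35, SE 0.08, a 1.28-fold difference, limma adjusted p = 0.0349). With the replicate block Msmo1 did not pass (limma adjusted p = 0.0686), and nor did it with arrays centred on their medians (0.0639). The call of Mvk was lost without CD44hi array 1 or 3 or any 1 CD44lo array (adjusted p 0.0506 to 0.140), and that of Msmo1 without any 1 array except CD44hi array 4 (0.0732 to 0.186).

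Of the other sterol enzymes on arrays 2 and 4, with the probe sets used, Hsd17b7 had the largest difference (-0.75, SE 0.43, limma adjusted p = 0.384) and Ebp had -0.37. This order depends on the probe set. The dimmest probe sets of Cyp51 and Hmgcs1 had -0.54 and -0.52, where those used had -0.27 and -0.10, and the dimmer one of Hsd17b7 had -0.46. On arrays 2 and 4, 13 of 19 members with several probe sets had all of them on one side. Nsdhl was the 1 sterol enzyme above 0 there, at 0.16, and Fdps stood at 0.00 from rounding below 0. On arrays 1 and 3 Nsdhl was at 11.58 and 11.53 in CD44hi and at 11.21 and 11.23 in CD44lo, a difference of 0.34 (SE 0.08) that just missed the threshold (limma adjusted p = 0.0501).

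Tm7sf2 was at 9.61, 9.34, 9.57 and 9.29 in CD44hi and at 10.28, 9.45, 10.29 and 9.65 in CD44lo. CD44lo arrays 1 and 3 stood above all others, and on that pair Tm7sf2 fell in CD44hi (difference -0.69, SE 0.09, a 1.62-fold difference, limma adjusted p = 0.0047). On arrays 2 and 4 its difference of -0.24 did not pass (limma adjusted p = 0.168). Without CD44hi array 3 the adjusted p on arrays 1 and 3 was 0.0520. With the replicate block Tm7sf2 kept the call (limma adjusted p = 0.0266).

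Fads1, a desaturase of the polyunsaturated fatty acid path, was at 9.90, 8.67, 9.96 and 8.99 in CD44hi and at 9.26, 8.29, 9.36 and 8.13 in CD44lo. At each replicate number the CD44hi array was the higher, although arrays 1 and 3 of CD44lo lay above arrays 2 and 4 of CD44hi. It rose by 0.62 on both pairs (SE 0.12 each; 1.54-fold and 1.53-fold; limma adjusted p = 0.0292 on arrays 1 and 3 and 0.0201 on arrays 2 and 4). With the replicate block neither within-pair call remained (limma adjusted p = 0.0848 and 0.0608), whereas over all arrays the block brought the call given above. Within arrays 1 and 3 the call was lost without either CD44hi array of that pair or any 1 CD44lo array (adjusted p 0.0535 to 0.195), and within arrays 2 and 4 without CD44lo array 2 or 4 (0.0658 and 0.135).

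No other fatty acid gene passed within a pair. Fasn differed by 0.28 on arrays 1 and 3 and by -0.30 on arrays 2 and 4, Elovl6 by -0.16 and -0.54, and Acaca by -0.45 and -0.11. Scd1 and Scd2 differed by no more than 0.11 in size in either pair with the probe sets used. Their dimmest probe sets differed by 0.75 for Scd1 and 0.73 for Scd2 on arrays 2 and 4. With the mean of all probe sets Scd1 passed there as higher in CD44hi (difference 0.41, limma adjusted p = 0.0220). Another Scd2 probe set, at a mean level of 12.86, differed by 0 on arrays 2 and 4. Scd1 and Scd2 are close paralogs whose probes can cross-hybridise, which was not tested. Whether either of them differs is uncertain. None of the SREBP regulators passed in either pair; Srebf1 differed by -0.15 and 0.06 and Srebf2 by 0.23 and -0.02.

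The difference between the pairs was tested itself, as an interaction of group and pair. It passed in 0 of 31 members (limma, adjusted p under 0.05), against 1.52% of all genes, and at an unadjusted p under 0.05 in 8 members, against 14.1% of all genes. The smallest adjusted p was that of Sqle (interaction 0.59, SE 0.12, limma adjusted p = 0.0707), and Mvk had 0.60 (SE 0.15, 0.122). With an intensity trend in the variance model 3 members passed, namely Sqle, Idi1 and Msmo1 (adjusted p = 0.0242, 0.0272 and 0.0402). Without CD44hi array 4, Sqle and Mvk passed (0.0310 each). Among genes above the median level, Sqle passed (0.0276). These p-values do not show that the pairs were alike in the other members. For Fads1 the interaction was 0.01.

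**Figure D4:**
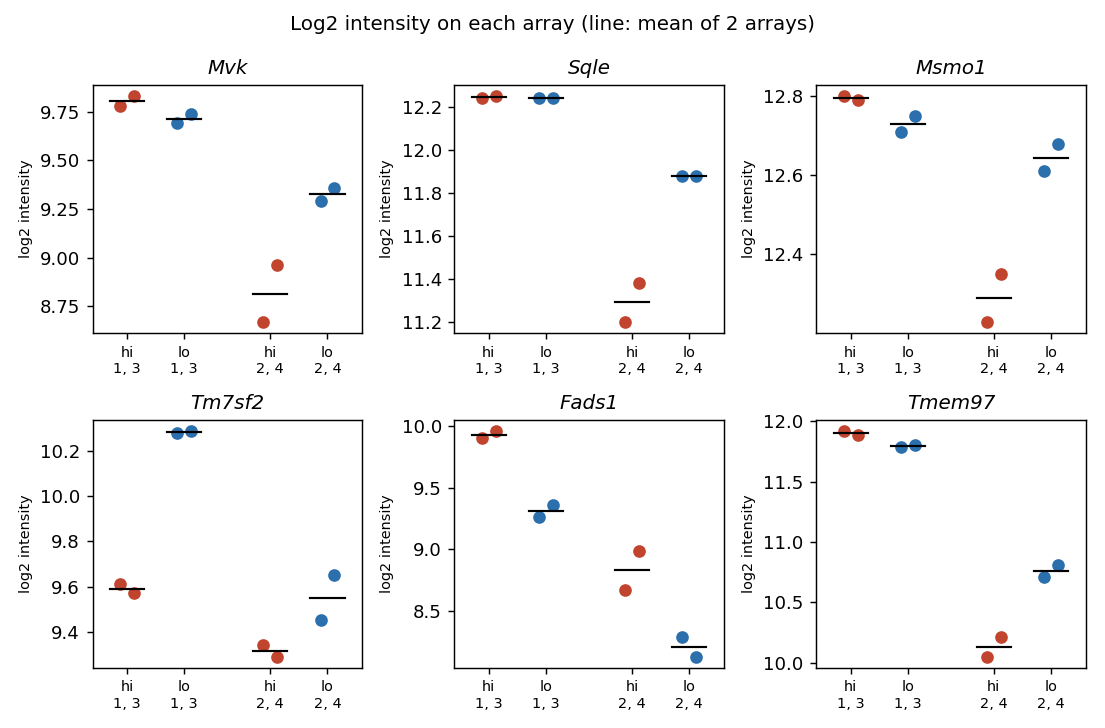
Log2 intensity (y axis, own scale in each panel) of the 5 members called within a pair and of Tmem97, by group and replicate pair; points are arrays and lines the mean of 2 arrays. Sqle, Mvk, Msmo1 and Tmem97 are lowest in CD44hi on arrays 2 and 4, Tm7sf2 is highest in CD44lo on arrays 1 and 3, and Fads1 is higher in CD44hi in both pairs.

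Around these pathways, 40 of 54 listed genes of sterol uptake, SREBP processing, efflux, lipid synthesis and fatty acid oxidation were measured. Over all arrays 1 was higher in CD44hi and 0 lower, against 2.03% and 1.78% of all genes, so the counts are near the background. That gene was Abca1, the pump that exports cholesterol to apolipoproteins, at 5.83, 6.71, 5.75 and 6.36 in CD44hi and at 4.64, 4.72, 4.51 and 4.54 in CD44lo. The groups did not overlap, and Abca1 rose by 1.56 (SE 0.20, limma adjusted p = 0.0024), by 1.21 on arrays 1 and 3 and by 1.90 on arrays 2 and 4. Its CD44lo arrays were all below 5.43, the 25th percentile given above, and no detection calls were used, so these sizes are not exact. With the mean of its probe sets the difference over all arrays was 0.57, so its size depends on the probe set; the call held under all 16 alternatives (limma adjusted p up to 0.0251). With the probe set mean it did not pass on arrays 1 and 3 (0.0516).

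On arrays 2 and 4, 4 of the 40 were lower in CD44hi, against 5.22% of all genes. Tmem97, an endoplasmic reticulum protein induced when sterol is scarce, was at 11.92, 10.05, 11.89 and 10.21 in CD44hi and at 11.79, 10.71, 11.80 and 10.81 in CD44lo, a pattern like that of Sqle. It fell by 0.63 on arrays 2 and 4 (SE 0.09, limma adjusted p = 0.0043), against a difference of 0.11 on arrays 1 and 3. The interaction of Tmem97 passed (0.74, SE 0.12, limma adjusted p = 0.0411), though not with the replicate block (0.0969), with arrays centred on their medians (0.0540), or without CD44hi array 1 or 3 or any 1 CD44lo array (0.139 to 0.189). Scarb1, a receptor for high-density lipoprotein, fell by 0.94 (SE 0.15, limma adjusted p = 0.0094), a call lost without CD44lo array 2 or 4 (0.0573 and 0.0716). Aacs, which activates acetoacetate for lipid synthesis, fell by 0.47 (limma adjusted p = 0.0160), and Acadl, a dehydrogenase of fatty acid oxidation, by 0.45 (0.0275). Without CD44lo array 2 or 4 Aacs did not pass (0.117 and 0.0573), and Acadl did not pass without any 1 array except CD44hi array 4 (0.0547 to 0.167). The replicate block also ended the call of Acadl (0.0748). With the mean of all probe sets neither passed (0.0668 and 0.568). Tmem97, Scarb1 and Aacs also had all arrays 1 and 3 above all arrays 2 and 4, by 1.40, 1.18 and 0.82 on average. Of the 40 genes 10 (25%) did so, and of the 10 fatty acid oxidation genes 1.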

How the data were processed

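Expression was measured on 8 1-colour arrays, 4 CD44hi and 4 CD44lo, grouped and numbered by their titles. The deposited values are linear probe set intensities, which the authors obtained by RMA (Robust Multichip Average), per the labels' protocols. Its version is not given in the labels. RMA shrinks differences near background. Array medians were 320.3 to 339, and log2 was taken with no pseudocount and no filter.

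Of 22690 probe sets 20380 have 1 symbol in the platform annotation, 691 several, 1555 none, and 64 are controls. Each gene was read from its brightest probe set (highest mean log2). All 31 members found kept their symbol in RefSeq (GRCm38.p6) by gene identifier. Tests were limma's (3.58.1, under R 4.3.3), by lmFit and eBayes, with Benjamini-Hochberg adjustment over 12393 genes and a threshold of 0.05. Fits were group alone, and 4 cell means of group by replicate pair with their interaction. They were tested on simulated data. Deviations of same-numbered arrays from group means correlated at 0.574, 0.404, 0.533 and 0.531 across genes, all over 0.1. Different numbers of one pair reached 0.521. The main fits did not pair arrays by number, and the block on the replicate number was an alternative.

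Genes given on every array are members called in any test and a fixed set of 8 found members, plus Hsd17b7 and Nsdhl (arrays 1 and 3), chosen after their values were seen. Other lipid genes named are those called. The members, lists and replicate pairs were chosen with earlier results of these data known. Alternatives changed the normalization, probe set, filter, variance model, block and arrays used.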

Additional observations from a re-analysis of the deposited data

Results flagged for a closer look

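In 1 of 62 groups of 4 values of the members, 1 array lay far from the others. The rule flags about 1 in 20 by chance where the 4 values come from a single population. In most members the values parted by replicate pair, so that rate does not apply here, and the count does not measure how uniform the arrays were. For Fads2, CD44hi array 1 was at 5.41 and the others at 5.83 to 5.91, near the 25th percentile of all values (5.43). The CD44 difference of Tmem97, a gene outside the member list, differed between the replicate pairs by 0.74 (limma interaction, adjusted p = 0.0411).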

How the results depend on the processing

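No member was called as higher over all arrays, against 1 with the replicate block and 1 with the replicate set block; 0 were lower, against 1 with the replicate set block. In arrays 1 and 3 the 1 higher member became 2 with the mean of all probe sets, 2 among genes above the median, 2 with an intensity trend, 0 with the replicate block and 0 to 2 leaving out 1 array; the 1 lower member became 2 in the 4 arrays alone and 0 to 1 leaving out 1 array. In arrays 2 and 4 the 1 higher member became 2 with the mean of all probe sets, 0 with the replicate block, 0 in the 4 arrays alone and 0 to 1 leaving out 1 array; the 3 lower members became 5 with the mean of all probe sets, 8 among genes above the median, 8 with an intensity trend, 0 in the 4 arrays alone and 1 to 8 leaving out 1 array. The interaction, passed by 0 members, was passed by 1 among genes above the median, 3 with an intensity trend and 0 to 2 leaving out 1 array. The cause was not tested. With arrays 1 and 3, and 2 and 4, averaged first, 0 members were called over all arrays.

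Across all alternatives, 17 named genes gave 1076 values, of which 1005 stayed on the same side, 55 lost a call, 16 gained one and 0 called values reversed; 38 uncalled values changed sign. The count of 23 members with arrays 1 and 3 above arrays 2 and 4 stayed between 21 and 25 under the normalization, probe set, filter and leave-one-out alternatives, which were applied to it after the data were seen, and their median difference between 0.50 and 0.61. Precision is limited by having 4 arrays a group, and in the tests within a pair and of the interaction by having 2 arrays of each group in a pair.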
